A study of Mus musculus with 17 samples.

Results

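Arg1, Nos2, Spp1, Mmp12 and Chil1 are 5 of the 988 genes counted by a targeted immuno-oncology panel in 17 mouse colon libraries, and they were taken by their gene symbols as a set of myeloid effector products. The libraries came from mice injected intraperitoneally with azoxymethane, a carcinogen that gives rise to colon tumors in rodents. Every group received it, so there was no untreated group. Kit-B6 mice are C57BL/6 animals with mast cells, and Kit-W/sh mice carry a regulatory allele of Kit, the stem cell factor receptor, that leaves adults short of mast cells. There were 6 Kit-B6 and 6 Kit-W/sh tumors, taken at postnatal week 32 after 6 injections in 6 weeks and a further 18 weeks. There were 3 Kit-B6 and 2 Kit-W/sh preneoplastic colon samples, taken at postnatal week 14 after 3 injections in 3 weeks and a further 3 weeks. Stage was therefore tied to age, injections and tissue, which cannot be told apart. Nothing in the labels states that each sample is a separate mouse, so p-values reflect spread among these samples only, which may be in part technical.

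Arginase 1, encoded by Arg1, splits arginine into ornithine and urea, and inducible nitric oxide synthase, encoded by Nos2, turns the same amino acid into nitric oxide and citrulline. Mouse macrophages stimulated with interleukin 4 typically make the former enzyme, and those stimulated with interferon and bacterial products the latter, while suppressive myeloid cells of tumors can make both and deplete arginine that T cells need. Spp1 encodes osteopontin, a secreted phosphoprotein that binds CD44 and integrins. Mmp12 encodes macrophage elastase, a secreted protease of elastin and other matrix proteins. Chil1 encodes a chitin-binding protein without chitinase activity, known as YKL-40 in humans, that macrophages, neutrophils and epithelial cells can secrete.

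Library totals ran from 616009 to 1399902 counts. Levels are in CPM, counts scaled to a common library size, and 3 counts, taken as the detection floor, are worth 2.14 to 4.87 CPM in a single library. The mean of Kit was lower in Kit-W/sh samples at both stages, at 49.1 to 258 CPM against 94.2 to 476 CPM in tumors and 113 to 125 CPM against 264 to 521 CPM in preneoplastic colon. In edgeR neither difference was called. The log2 fold change of Kit was -1.08 ± 0.48 in tumors (edgeR adjusted p = 0.3627) and -1.68 ± 0.35 in preneoplastic colon (edgeR adjusted p = 0.2535). DESeq2 called the preneoplastic difference (adjusted p = 0.001394). The Kit amplicon reads transcript level and does not test the allele. The epithelial marker Epcam was at 22190 CPM or more in every library. It averaged 26790 and 28110 CPM in Kit-B6 and Kit-W/sh preneoplastic colon and 27520 and 26940 CPM in the tumors. In the same order, the summed level of the 2 epithelial markers measured averaged 77020, 88670, 31410 and 28490 CPM. The lower sum in tumors thus came from the marker other than Epcam. The library labelled Kit-W/sh tumor 2 had a summed mast cell marker level of 1524 CPM, the highest of the Kit-W/sh tumors, which goes against its label. The remaining Kit-W/sh tumors had sums of 267.5 to 629.9 CPM. These overlapped the 457.7 to 1545 CPM of Kit-B6 tumors, so the sum did not separate the tumor genotypes. Kit-B6 tumor 4 had the lowest summed macrophage and neutrophil markers of the 12 tumors, at 1608 and 76.6 CPM, and the highest summed epithelial markers, at 49690 CPM. It was also the lowest tumor of the 12 for each of the 5 genes. Where a call or sign of the 5 genes between tumor genotypes changed without either library, values are given with and without it. Marker sums and likeness are given with both libraries only.

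The sequences upstream of Spp1, Mmp12 and Chil1 are shown because these 3 genes rose from few counts in preneoplastic colon to tumors and had a promoter entry. Each window runs from 250 bases before to 50 bases after a RefSeq gene start (GRCm38.p6, plus strand). The Spp1 window lies at chr5:104434861-104435160, Mmp12 at chr9:7347124-7347423 and Chil1 at chr1:134181906-134182205. Capitals mark matches to any of 8 short motifs, searched on both strands.
Spp1: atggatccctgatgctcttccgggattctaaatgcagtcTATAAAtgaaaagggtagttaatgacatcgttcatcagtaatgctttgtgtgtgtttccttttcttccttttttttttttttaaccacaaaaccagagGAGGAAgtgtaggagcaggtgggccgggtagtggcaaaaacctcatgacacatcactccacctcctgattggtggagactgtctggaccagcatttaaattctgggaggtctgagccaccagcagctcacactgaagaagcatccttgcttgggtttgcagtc
Mmp12: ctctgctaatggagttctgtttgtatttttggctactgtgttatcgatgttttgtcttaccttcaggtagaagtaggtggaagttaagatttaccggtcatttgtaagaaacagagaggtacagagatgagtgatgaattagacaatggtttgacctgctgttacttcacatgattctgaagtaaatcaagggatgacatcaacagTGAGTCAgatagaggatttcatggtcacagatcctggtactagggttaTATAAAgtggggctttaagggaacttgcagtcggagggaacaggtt
Chil1: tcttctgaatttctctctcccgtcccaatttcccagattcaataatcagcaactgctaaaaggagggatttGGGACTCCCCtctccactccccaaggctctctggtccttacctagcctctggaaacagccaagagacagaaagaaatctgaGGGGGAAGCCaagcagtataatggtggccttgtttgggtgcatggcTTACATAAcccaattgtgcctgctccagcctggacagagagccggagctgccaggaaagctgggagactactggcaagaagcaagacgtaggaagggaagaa
The Spp1 window held the TATA motif TATAAA at -211 to -206 from the listed start. It also held GAGGAA, a core bound by the myeloid factor PU.1, at -113 to -108. The Mmp12 window held TGAGTCA, a match to the AP-1 motif TGANTCA, 44 to 38 bases before the start, and TATAAA just after the listed start. The Chil1 window held 2 matches to the NF-kB motif, GGG and CC set 5 bases apart, and 1 to the C/EBP motif TTNNGNAA. None of the 3 windows held the other motifs searched, which were the STAT motifs, TTC and GAA set 3 or 4 bases apart, and the hypoxia motif ACGTG. Of 32851 RefSeq promoter windows of the same length, 50.8% held the NF-kB motif, 40.7% the C/EBP motif, 28.3% GAGGAA, 13.6% TATAAA and 7.81% the AP-1 motif. The 2 STAT motifs were in 8.3% and 6.95% of windows and the hypoxia motif in 19.6%. The motifs do not overlap in these windows, and a match describes letters, not binding. Spp1 and Mmp12 each have 2 listed starts, and the windows not shown held other matches. These were to the C/EBP motif in both genes and to the NF-kB and PU.1 motifs in Mmp12.

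Arg1 was low in preneoplastic colon and high in every tumor. Its level was 14.5, 27.0 and 27.9 CPM in the 3 Kit-B6 preneoplastic samples and 16.1 and 16.5 CPM in the 2 Kit-W/sh ones. In Kit-B6 tumors it had a lowest value of 424, a median of 2091 and a highest value of 5104 CPM, and in Kit-W/sh tumors these were 1343, 3067 and 3905 CPM. The lowest tumor of each genotype was 15.2 and 81.3 times the highest preneoplastic sample of the same genotype, so stages did not overlap. Of all genes tested, 16.6% in Kit-B6 and 30.4% in Kit-W/sh were higher in tumors without overlap. The pooled counts gave a ratio of tumor to preneoplastic colon of 119 in Kit-B6 (95% exact interval 87.4 to 165) and 199 in Kit-W/sh (130 to 322), where the intervals cover counting error only. The log2 fold change was 6.67 ± 0.76 (SE) in Kit-B6 (edgeR adjusted p = 1.514e-05) and 7.39 ± 0.96 in Kit-W/sh (edgeR adjusted p = 0.0001361). In bulk tissue, fewer cells of a type and less RNA per cell cannot be told apart.

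Nos2 was already measurable before tumors formed and moved far less. The 3 Kit-B6 preneoplastic samples had 57.9, 133 and 37.2 CPM, and the Kit-W/sh pair 123 and 118 CPM. Kit-B6 tumors 1 to 6 had 158, 196, 126, 60.0, 159 and 155 CPM, a range that overlaps the preneoplastic one. Kit-W/sh tumors 1 to 6 had 486, 150, 353, 590, 788 and 186 CPM, all above both Kit-W/sh preneoplastic samples. The rise in Kit-W/sh passed the threshold (log2 fold change 1.80 ± 0.63, edgeR adjusted p = 0.0331), and Kit-B6 gave 0.89 ± 0.52 (adjusted p = 0.1763). The Kit-B6 value was 1.58 without Kit-B6 preneoplastic sample 2 (adjusted p = 0.05858) and 0.56 without sample 3 (adjusted p = 0.4656). The 2 changes were not shown to differ (interaction 0.91 ± 0.77, edgeR adjusted p = 0.8539, and 0.21 without Kit-B6 preneoplastic sample 2). The call in Kit-W/sh was lost with limma-voom (adjusted p = 0.1083) and without Kit-W/sh tumor 4 (0.05287), tumor 5 (0.05435), preneoplastic sample 1 (0.1689) or preneoplastic sample 2 (0.1648). The adjusted p lay between 0.01464 and 0.1689 over the 8 fits that left out 1 library.

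**Figure D1:**
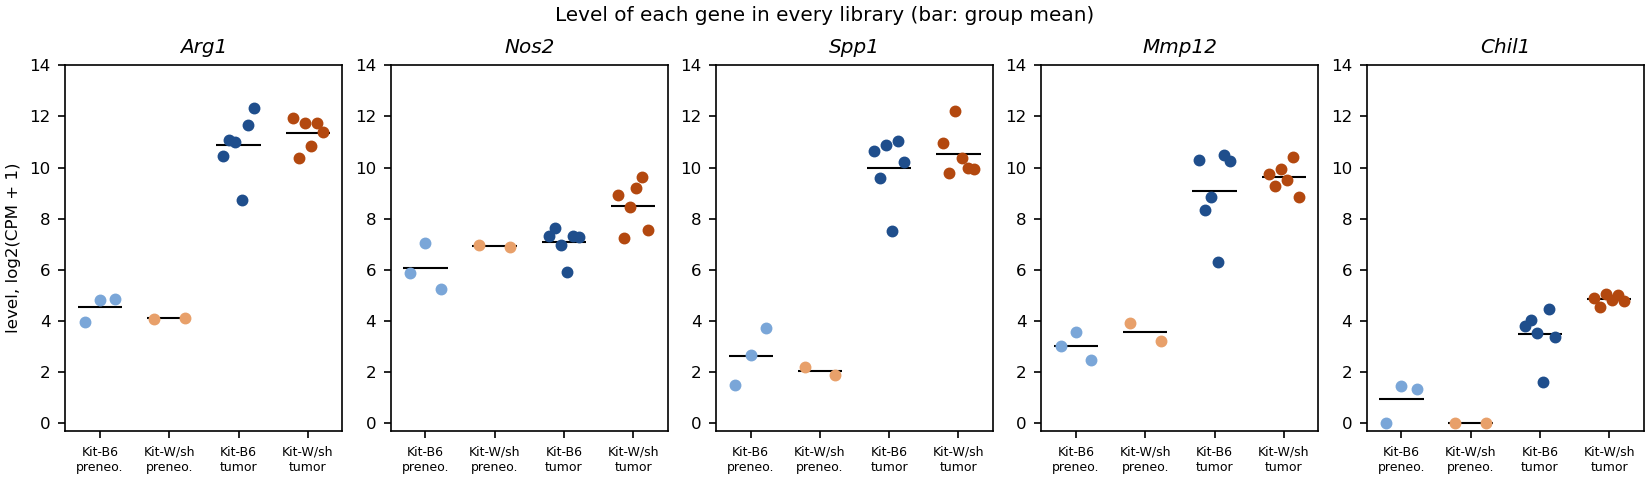
Level of Arg1, Nos2, Spp1, Mmp12 and Chil1 as log2(CPM + 1) in each of the 17 libraries by group (preneo., preneoplastic colon), with a bar at the group mean. Tumors lie above all preneoplastic samples of their genotype for 4 of the 5 genes, though Chil1 in Kit-B6 tumor 4 is below the detection floor. Nos2 in Kit-B6 tumors overlaps the preneoplastic range. Of all genes tested, 16.6% in Kit-B6 and 30.4% in Kit-W/sh were higher in tumors without overlap. Chil1 in Kit-W/sh tumors lies above every Kit-B6 tumor, beside 0.626% of all genes tested.

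The balance of Arg1 to Nos2 within a library is given as the log2 ratio of their CPM + 1, and its absolute value has no meaning across different amplicons. The log2 ratio was -1.93, -2.26 and -0.40 in Kit-B6 preneoplastic samples and -2.86 and -2.77 in the Kit-W/sh ones. In tumors it was 3.80 ± 0.83 (SD, n = 6) in Kit-B6 and 2.84 ± 0.82 (SD, n = 6) in Kit-W/sh. The shift toward Arg1 from preneoplastic colon to tumor was 5.33 in Kit-B6 (two-sided exact permutation p = 0.0119, adjusted over 3 comparisons 0.0357) and 5.66 in Kit-W/sh (exact permutation p = 0.0357, adjusted 0.0536). Both unadjusted values are the smallest these sample numbers allow. Between tumor genotypes the ratio was lower in Kit-W/sh by a log2 difference of -0.96 (exact permutation p = 0.0736, adjusted 0.0736), with 5 of 6 Kit-W/sh tumors below the Kit-B6 median. Without Kit-B6 tumor 4 the difference was -1.16 (exact permutation p = 0.0368) and without Kit-W/sh tumor 6 it was -1.17 (exact permutation p = 0.0476). Over the 12 settings that left out 1 tumor it lay between -1.17 and -0.71 (exact permutation p from 0.0368 to 0.154).

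**Figure D2:**
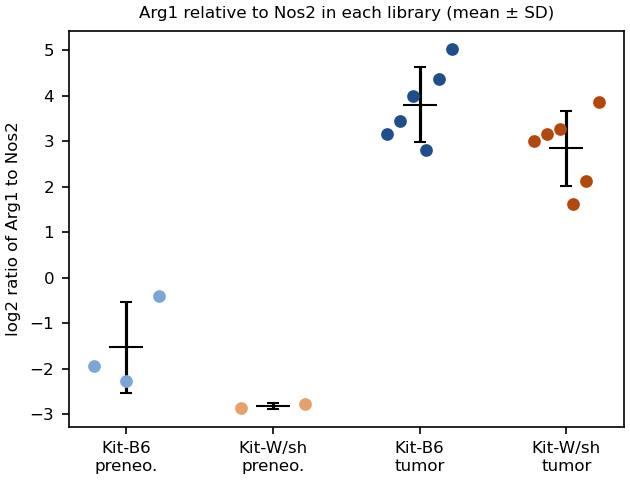
Log2 ratio of Arg1 to Nos2 in each library, with the mean and SD of each group. The preneoplastic libraries lie between -2.86 and -0.40 and the tumors between 1.62 and 5.03, and the tumor genotypes overlap.

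Of the arginine and polyamine genes other than these 2, the panel measured 3 of 18, and all 3 were tested. Arg2, the mitochondrial arginase, rose in tumors of both genotypes, from 60.4 ± 29.1 (n = 3) to 154 ± 81.3 CPM (SD, n = 6) in Kit-B6 and from 71.1 ± 4.60 (n = 2) to 321 ± 120 CPM (n = 6) in Kit-W/sh. The log2 fold changes were 1.34 ± 0.45 (edgeR adjusted p = 0.02658) and 2.16 ± 0.56 (edgeR adjusted p = 0.006735). The Kit-B6 call was lost without Kit-B6 tumor 5 (adjusted p = 0.05399), preneoplastic sample 2 (0.1252) or preneoplastic sample 3 (0.07262), and the Kit-W/sh call without preneoplastic sample 1 (0.08105) or 2 (0.06349). With limma-voom (0.08046) or with only the 2 groups in the fit (0.07433) the Kit-B6 call was also lost. No other gene of the list was called. In tumors Arg2 averaged 1.04 ± 0.34 higher in Kit-W/sh on the log2 scale (edgeR adjusted p = 0.2111) and Ass1, which regenerates arginine from citrulline together with Asl, 0.46 ± 0.21 (adjusted p = 0.3627).

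Spp1 was near the counting floor in preneoplastic colon and abundant in all 12 tumors. The 3 Kit-B6 preneoplastic libraries held 1, 3 and 8 counts of Spp1 (1.81, 5.39 and 12.4 CPM) and the 2 Kit-W/sh libraries 2 counts each (3.57 and 2.75 CPM). Kit-B6 tumors had a lowest value of 184, a median of 1390 and a highest of 2101 CPM, and Kit-W/sh tumors 883, 1172 and 4781 CPM. No tumor overlapped a preneoplastic sample. Pooled counts gave a ratio of 234 in Kit-B6 (95% exact interval 134 to 454) and 700 in Kit-W/sh (273 to 2570), the latter against 4 counts in all. The log2 fold change was 7.54 ± 1.01 in Kit-B6 (edgeR adjusted p = 6.082e-05) and 9.13 ± 1.35 in Kit-W/sh (edgeR adjusted p = 0.0001838). Without Kit-B6 preneoplastic sample 3, which held 8 of that group's 12 counts, the Kit-B6 value was 8.41 (adjusted p = 0.0005236). The panel measured 5 of 9 other genes listed as osteopontin receptors, and 3 of the 5 rose in each genotype, beside 22.2% and 20.9% of all genes tested. These were the hyaluronan and osteopontin receptor Cd44 (1.89 ± 0.41 in Kit-B6, 2.50 ± 0.51 in Kit-W/sh) and the integrin subunits Itgav (1.62 ± 0.28 and 1.66 ± 0.33) and Itgb1 (1.20 ± 0.20 and 1.11 ± 0.24). The largest edgeR adjusted p of the 6 values was 0.002269. The median log2 fold change of the 5 receptor genes was 1.20 in each genotype, against 0.08 over all genes tested in Kit-W/sh and close to 0 in Kit-B6.

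Mmp12 followed the same course as Spp1. Kit-B6 preneoplastic samples had 7.24, 10.8 and 4.66 CPM, and the Kit-W/sh pair 14.3 and 8.26 CPM, all from 8 counts or fewer. Kit-B6 tumors had a lowest value of 78.6, a median of 851 and a highest of 1426 CPM, an 18.1-fold range, and Kit-W/sh tumors 464, 804 and 1377 CPM, a 2.97-fold range. Every tumor lay above every preneoplastic sample. The pooled ratio was 138 in Kit-B6 (95% exact interval 80.4 to 258) and 91.3 in Kit-W/sh (54.4 to 167). The log2 fold change was 6.71 ± 0.95 in Kit-B6 (edgeR adjusted p = 8.719e-05) and 6.22 ± 1.09 in Kit-W/sh (edgeR adjusted p = 0.0006027). None of 13 other secreted matrix metalloproteinases and inhibitors listed was measured.

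Chil1 had the fewest counts of the 5 genes. It gave 0, 1 and 1 counts in the Kit-B6 preneoplastic libraries and 0 in both Kit-W/sh ones. Kit-B6 tumors 1 to 6 had 13.0, 15.4, 10.5, 2.07, 21.5 and 9.39 CPM, from 2 to 30 counts, and Kit-W/sh tumors 1 to 6 had 28.8, 22.4, 32.7, 27.1, 31.8 and 26.5 CPM, from 29 to 40 counts. All tumors exceeded the preneoplastic samples of their genotype, though Kit-B6 tumor 4, with 2 counts, was below the floor. In Kit-B6 the 77 tumor counts against 2 preneoplastic counts gave a ratio of 12.9 (95% exact interval 3.44 to 108). The 208 counts of Kit-W/sh tumors against 0 were at least 14.2-fold higher, taking a floor of 3 counts over the preneoplastic group, and the lower bound of the 95% exact interval of their ratio was 11.5. The fitted log2 fold change was 3.26 ± 0.77 in Kit-B6 (edgeR adjusted p = 0.004153). The adjusted p in Kit-W/sh was 0.0005441, where the fitted fold change against 0 counts is no bound and is not given. Of 6 other chitinase-like family genes only Chit1, an active chitinase of macrophages, was measured. Chit1 rose by 1.36 ± 0.46 in Kit-B6 (edgeR adjusted p = 0.02749) and gave 1.24 ± 0.55 in Kit-W/sh (adjusted p = 0.08213). The Kit-B6 call was lost without preneoplastic sample 2 (adjusted p = 0.1221) or 3 (0.127), and with only the 2 groups in the fit (0.07528). Chit1 in Kit-W/sh was called with DESeq2 (adjusted p = 0.03832) and without TMM scaling (0.03548).

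From preneoplastic colon to tumor, 4 of the 5 genes were called higher in Kit-B6, beside 22.2% of the 869 genes tested called higher and 41.1% called in either direction. In Kit-W/sh 5 of 5 were called higher, beside 20.9% called higher and 39.7% in either direction. All 5 passed the filter on low counts in this fit, and Spp1, Mmp12 and Chil1 did so through their tumor levels. Without TMM scaling the median of all genes moved to 0.24 in Kit-B6 and from 0.08 to 0.34 in Kit-W/sh, and the share of called genes that were higher moved from 54.1% to 73.0% and from 52.8% to 70.1%. The 5 genes then gave 6.93 and 7.64 (Arg1), 1.16 and 2.04 (Nos2), 7.77 and 9.41 (Spp1), 6.96 and 6.47 (Mmp12) and, in Kit-B6, 3.49 (Chil1), so no direction changed. The stage comparisons of the 2 genotypes use separate samples. The interaction of genotype and stage called 0 of 869 genes in edgeR (0%), with 63 (7.25%) at an unadjusted p under 0.05 and 1 called by DESeq2. Chil1 had the lowest p of the 5 genes in it (unadjusted p = 0.04946 in edgeR, adjusted p = 0.66), an estimate that rests on 0 counts in Kit-W/sh preneoplastic colon.

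**Figure D3:**
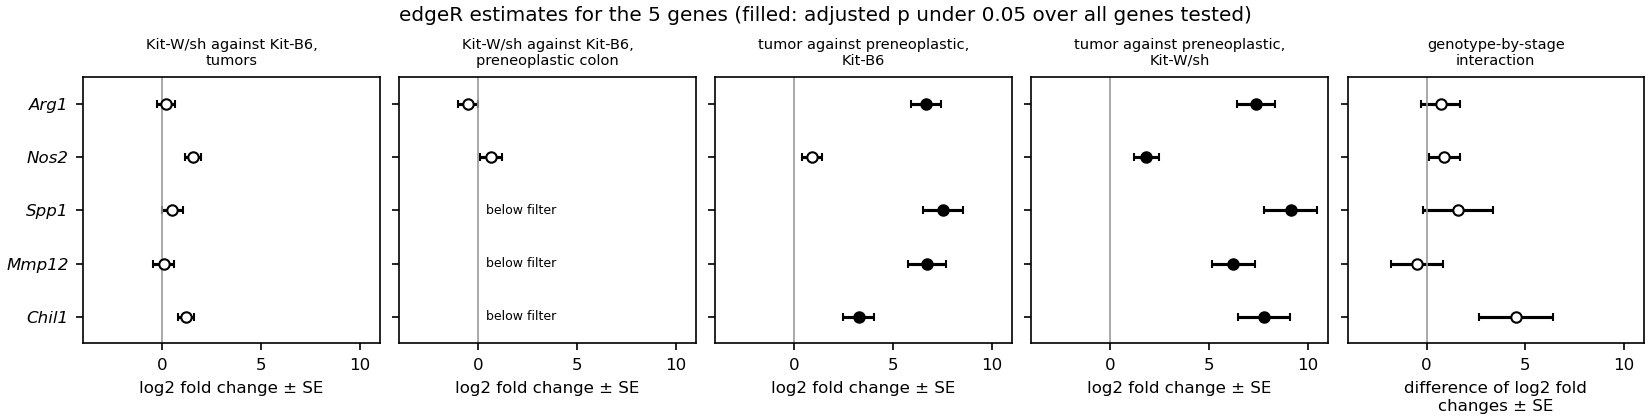
edgeR log2 fold change ± SE of the 5 genes in each comparison, and the interaction of genotype and stage, with filled points for an adjusted p under 0.05 over all genes tested. Filled points occur only in the stage comparisons, 4 in Kit-B6 and 5 in Kit-W/sh. The Kit-W/sh point and interaction of Chil1 are fitted against 0 counts and are not bounds.

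Between genotypes in tumors, Nos2 and Chil1 had higher means in Kit-W/sh and Arg1, Spp1 and Mmp12 overlapped widely. The edgeR test called 0 of 799 genes (0%), and thus 0 of the 5, while 109 genes (13.6%) had an unadjusted p under 0.05 and DESeq2 called 24. Nos2 and Chil1 were 2 of these 109. Nos2 averaged 426 ± 245 CPM in Kit-W/sh and 142 ± 46.1 CPM in Kit-B6 tumors (SD, n = 6 each). Its log2 fold change of 1.56 ± 0.40 had an edgeR adjusted p of 0.154, the sixth smallest p of all genes. In 4 of 6 Kit-W/sh tumors Nos2 exceeded every Kit-B6 tumor, and Kit-W/sh tumors 2 and 6 lay within the Kit-B6 range. As a single value, the mean log2(CPM + 1) of Nos2 differed by 1.43 (two-sided exact permutation p = 0.0195, not adjusted for the 5 genes). Nos2 was the 1 gene of the 5 that DESeq2 called (1.54, adjusted p = 0.009601), and edgeR called it when both Kit-W/sh tumor 2 and Kit-B6 tumor 4 were left out (1.57, adjusted p = 0.03515). Leaving out Kit-W/sh tumor 2 alone gave an adjusted p of 0.05172 and Kit-B6 tumor 4 alone 0.1972, and over all 20 alternatives it lay between 0.009601 and 0.3489.

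Chil1 averaged 28.2 ± 3.79 CPM in Kit-W/sh and 11.99 ± 6.49 CPM in Kit-B6 tumors (SD, n = 6 each), and no Kit-W/sh tumor overlapped a Kit-B6 tumor. The margin was narrow, at 22.4 CPM from 29 counts in Kit-W/sh tumor 2 against 21.5 CPM from 30 counts in Kit-B6 tumor 5. Among the 799 genes tested, 5 (0.626%) were higher in Kit-W/sh without overlap. The edgeR log2 fold change was 1.20 ± 0.39 (adjusted p = 0.2111, and 0.05244 to 0.4505 over 20 alternatives), so it was not called. The mean log2(CPM + 1) differed by 1.38 (two-sided exact permutation p = 0.00216, the smallest that 6 against 6 samples allow, not adjusted for the 5 genes or the panel). For the remaining 3 genes the difference in mean log2(CPM + 1) was 0.47 for Arg1 (exact permutation p = 0.461), 0.57 for Spp1 (exact permutation p = 0.448) and 0.54 for Mmp12 (exact permutation p = 0.513). The edgeR estimates were 0.19 ± 0.45, 0.51 ± 0.53 and 0.07 ± 0.53 on the log2 scale (adjusted p = 0.8855, 0.7009 and 0.9711). Their signs depended on single libraries, with Arg1 at -0.05 and Mmp12 at -0.20 without Kit-B6 tumor 4 and Spp1 at -0.08 without Kit-W/sh tumor 3. A missed threshold does not show equal levels.

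In preneoplastic colon only Arg1 and Nos2 passed the filter on low counts, and 0 of these 2 were called, beside 0.129% (1 of 777 genes). Arg1 gave -0.53 ± 0.49 (edgeR adjusted p = 0.7208) and Nos2 0.64 ± 0.55 (adjusted p = 0.6957), or 1.32 without Kit-B6 preneoplastic sample 2 (adjusted p = 0.4119). The exact permutation p-values of the 5 genes ran from 0.4 to 0.6, where 3 against 2 samples cannot go below 0.1. Spp1, Mmp12 and Chil1 had at most 8 counts per library there, and were not tested between genotypes in edgeR.

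Genes listed as suppressive or alternatively activated myeloid products, other than Arg1, included called genes in both directions between stages, at a share near that of all genes. Of 29 listed the panel measured 16 and 14 were tested, with 4 higher and 2 lower in Kit-B6 and 5 higher and 1 lower in Kit-W/sh, and a median log2 fold change of 0.37 and 0.09. These 6 of 14 genes in each genotype stand beside 41.1% and 39.7% of all genes tested. Fn1, the matrix protein fibronectin, rose by 2.67 ± 0.51 in Kit-B6 (edgeR adjusted p = 0.0008212) and 2.46 ± 0.60 in Kit-W/sh (adjusted p = 0.004943). Msr1, a macrophage scavenger receptor that is also on the macrophage marker list, rose by 2.02 ± 0.45 (adjusted p = 0.002504) and 2.41 ± 0.55 (adjusted p = 0.003364). Both Kit-W/sh calls were lost without Kit-W/sh preneoplastic sample 1, at adjusted p = 0.09235 for Fn1 and 0.05897 for Msr1. Genes of inflammatory activation other than Nos2 (15 of 19 measured, 13 tested) had 5 higher and 1 lower in each genotype, with medians of 0.76 and 0.82. These 6 of 13 genes are also near the 41.1% and 39.7% called among all genes. The cytokine Il1b rose by 3.36 ± 0.77 in Kit-B6 (edgeR adjusted p = 0.002865) and 4.47 ± 0.96 in Kit-W/sh (adjusted p = 0.002377). Il1a, its relative, rose by 3.12 ± 0.78 (adjusted p = 0.005263) and 5.80 ± 1.06 (adjusted p = 0.0007995). With limma-voom the Kit-B6 calls of Il1b (adjusted p = 0.06578) and Il1a (0.1169) were lost. Irf1, an interferon-induced transcription factor that drives Nos2 in mouse macrophages, fell by 1.28 in Kit-B6 and by 1.77 in Kit-W/sh on the log2 scale (edgeR adjusted p = 0.0004188 and 0.0001361). Between tumor genotypes edgeR called none of the 11 suppressive and 13 inflammatory genes tested, and Il1a at 1.99 ± 0.55 and Il1b at 1.91 ± 0.56 had the largest estimates of those described here (edgeR adjusted p = 0.154 each). DESeq2 called both (adjusted p = 0.01682 and 0.01963), as did edgeR without Kit-W/sh tumor 2 and Kit-B6 tumor 4 (adjusted p = 0.03515 each).

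Marker genes of several cell types also differed between the groups, and their part in the results was not tested. The macrophage and monocyte list had 11 of 18 genes measured, and its summed level lay between 1608 and 4421 CPM in Kit-B6 tumors and between 3057 and 4614 CPM in Kit-W/sh tumors. In preneoplastic colon it lay between 1332 and 1542 CPM (Kit-B6) and between 1365 and 1668 CPM (Kit-W/sh). Marco was at 0 counts in all groups. The neutrophil list had 6 of 14 genes measured, with sums in the same order of 76.6 to 404, 387 to 956, 14.0 to 27.2 and 17.8 to 20.6 CPM. Mpo and Cxcr1 were at 0 in preneoplastic colon. From preneoplastic colon to tumor the macrophage sum was higher by 1.02 in Kit-B6 and 1.33 in Kit-W/sh in mean log2(CPM + 1) (exact permutation p = 0.0357 each), and the neutrophil sum by 3.52 and 4.98 (exact permutation p = 0.0119 and 0.0357). Between tumor genotypes the neutrophil sum was 1.31 higher in Kit-W/sh (exact permutation p = 0.00433) and the macrophage sum 0.38 higher (exact permutation p = 0.134). The macrophage genes were mixed in that comparison, with 4 of 9 tested on the higher side, none called by edgeR and a median log2 fold change of -0.01. The neutrophil genes had 4 of 4 tested on the higher side and a median of 1.29, also with none called by edgeR. Of all 799 genes tested, 385 were on the higher side. In preneoplastic colon 1 of 10 macrophage genes had a higher estimate in Kit-W/sh (median -0.86), beside 380 of all 777 genes tested. The mean macrophage sum there was nevertheless 1516 CPM against 1440 CPM in Kit-B6. Mean sums of lymphocyte and stromal markers also differed between stages. The genes called on these lists stand beside all 869 genes tested. Of those, 164 were called lower and 193 higher in Kit-B6, and 163 lower and 182 higher in Kit-W/sh. The mean T cell sum (10 of 10 genes measured) was 1134 CPM in preneoplastic colon and 365 CPM in tumors of Kit-B6, with 4 of 10 genes called lower, and 787 and 459 CPM in Kit-W/sh, with 1 called lower. The B cell sum (8 of 9 genes) had means of 1350 and 171 CPM in Kit-B6, with 4 of 7 tested genes called lower, and was 237 and 51.3 CPM in Kit-W/sh, with 0 called. The stromal sum (4 of 11 genes) averaged 2918 and 7352 CPM in Kit-B6, with 2 of 4 genes higher and 1 lower, and 2824 and 6268 CPM in Kit-W/sh, with 2 higher and 2 lower.

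Taken relative to the macrophage sum of the same library, the stage difference of Arg1 was 5.32 in Kit-B6 and 5.90 in Kit-W/sh in log2 units, that of Spp1 6.33 and 7.17 and that of Mmp12 5.05 and 4.73, all without overlap. Nos2 relative to the same sum differed by -0.01 in Kit-B6 (exact permutation p = 0.988) and 0.24 in Kit-W/sh (exact permutation p = 0.679). Relative to the neutrophil sum, Arg1 still differed by 2.82 and 2.25 and Spp1 by 3.83 and 3.53 without overlap, while Nos2 differed by -2.51 and -3.40. Mmp12 differed by 2.54 in Kit-B6 and by 1.09, with overlap, in Kit-W/sh (exact permutation p = 0.0714). The preneoplastic neutrophil sums were small, with 1 and 2 counts of Cxcr2 and 13 and 10 of Csf3r over the Kit-B6 and Kit-W/sh groups. Spp1 and Mmp12 had at most 8 counts per preneoplastic library, so the sizes of these differences rest on few counts. No stage difference relative to these sums is given for Chil1, which had 0 or 1 counts in each preneoplastic library. Between tumor genotypes, Nos2 relative to the macrophage sum differed by 1.04 (exact permutation p = 0.0238) and Chil1 by 1.00 (exact permutation p = 0.00216). Relative to the neutrophil sum the differences were 0.11 for Nos2 (exact permutation p = 0.797) and 0.07 for Chil1 (exact permutation p = 0.766). The part of cell numbers in these differences was not tested.

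**Figure D4:**
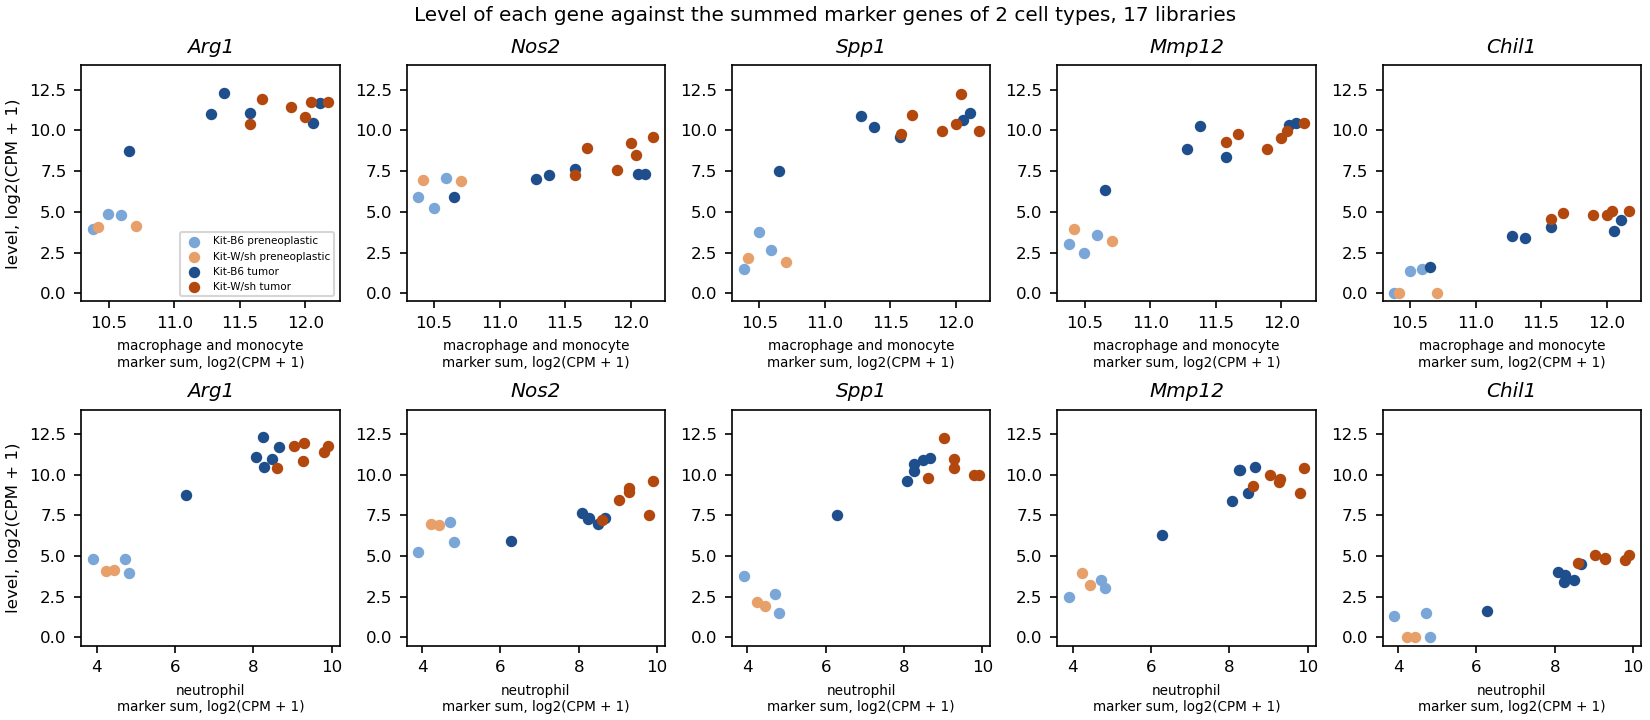
Level of each gene against the summed macrophage and monocyte markers (top) and the summed neutrophil markers (bottom) of the same library, all as log2(CPM + 1), for 17 libraries. Kit-W/sh tumors extend to higher neutrophil sums than Kit-B6 tumors, and Kit-B6 tumor 4 lies apart from the other tumors toward the preneoplastic samples.

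Across the 6 tumors of a genotype the 5 genes gave 20 pairwise relations of log2(CPM + 1), and none passed adjustment (lowest adjusted exact permutation p = 0.169 for Pearson's r and 0.292 for Spearman's rho). Nos2 and Chil1 in Kit-B6 tumors had the highest Pearson's r (r = 0.93, exact permutation p = 0.0347, and rho = 0.89, exact permutation p = 0.0333). Without the 2 tumors farthest from the median of Nos2, r was 0.46 (exact permutation p = 0.542). That value covers fewer tumors and a narrower range, so it cannot decide whether the relation rests on the 2 tumors. Spp1 followed the neutrophil sum in Kit-B6 tumors (r = 0.98, adjusted exact permutation p = 0.0278, rho = 1.0, adjusted exact permutation p = 0.0556, over 20 relations), and r was 0.93 without the 2 farthest tumors (exact permutation p = 0.0833). In Kit-W/sh tumors the same r was -0.25 (exact permutation p = 0.633).

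The genes whose level was most like each of the 5 over the 12 tumors, after the genotype mean was subtracted, were ranked by Pearson's r among 798 genes as a description. They share libraries and cell content, and Kit-B6 tumor 4 is low for many of them. For Arg1 these were Wnt5a (0.91), the neutrophil chemokine gene Cxcl5 (0.90) and Layn (0.85). Nos2 was most like the TNF receptor gene Tnfrsf1b (0.88), Creb3l2 (0.84) and the chemokine gene Cxcl2 (0.80). For Spp1 the genes were Fcrlb (0.86), Cdk5r1 (0.85) and Cd1d1 (0.85). Mmp12 was most like Ms4a6d (0.93), the integrin gene Itgam (0.90) and Fn1 (0.89), and Chil1 like Itgam (0.94), the formyl peptide receptor gene Fpr2 (0.94) and the integrin gene Itgb2 (0.92). Likeness was uneven between genotypes for some, with r for Chil1 and Itgb2 of 0.97 in Kit-B6 and 0.02 in Kit-W/sh tumors, and for Mmp12 and Fn1 of 0.98 and 0.25.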

How the data were processed

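Counts per panel gene were deposited by the authors as 1 table for each of 17 samples, from a QIAseq targeted RNA panel for mouse immuno-oncology genes, which amplifies a short stretch of each by multiplex PCR, per the labels' protocols. The submitters' processing notes name mm9 and DESeq2 without a role or version. Aligner, counter and filters are not given in the sources used here, nor whether reads or molecular tags were counted, so intervals and floors cover counting error only. Each table held 993 entries, 988 of them genes. The 5 genomic DNA control entries, at 0 counts in all libraries, were left out. Groups came from the sample titles. Libraries of a group differed by more than counting noise (lowest chi-square per degree of freedom 13.03).

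Counts were tested in edgeR 4.0.16 (R 4.3.3) with TMM scaling, filterByExpr (minimum count 10, minimum total 15), a robust quasi-likelihood fit and Benjamini-Hochberg adjustment over all genes tested, at a threshold of 0.05. The SE of an edgeR log2 fold change is its absolute value divided by the square root of the F statistic of its test. It was not estimated from the fit directly. Genotype comparisons used the libraries of 1 stage, and stage comparisons and the interaction used all 17 in 1 fit. CPM are scaled by TMM over all 17 libraries and depend on the amplicon, so levels are not compared between genes. Single values were compared with two-sided exact permutation tests of log2(CPM + 1), with all assignments enumerated (Python 3.11.15, numpy 2.4.6). SciPy 1.17.1 gave the exact intervals of pooled ratios and the ranks. The plan had these p-values adjusted over the 5 genes. They are printed unadjusted, because an adjustment over chosen genes alone is not given, and this was decided after both had been computed. Alternatives were DESeq2 1.42.0, limma-voom (limma 3.58.1), other scaling, no filter, other sample sets and pseudocounts. Added after the data were seen were 2 more, leaving out Kit-W/sh tumor 2 and Kit-B6 tumor 4, and levels relative to marker sums. The code was tested on simulated data.

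The genes and lists were chosen with earlier results of these data known. Named genes are the 5 genes in every comparison and, from each of 6 pathway lists, up to 4 with the smallest p among those called (up to 2 where none was called), of which the text gives part. Likeness names the 3 genes of highest r. Epcam, Marco, Mpo and Cxcr1 are from the marker lists. Promoter windows are RefSeq sequences (GRCm38.p6) matched by symbol; where 2 starts were listed, the one nearest most principal GENCODE transcripts is shown.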

Additional observations from a re-analysis of the deposited data

Results flagged for a closer look

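Spp1 in Kit-W/sh tumor 3 stood apart from its group, at 4781 CPM against 883 to 2008 CPM in the other 5 tumors. Its gap to the nearest tumor, taken in CPM, was 0.711 of the group's range, above the critical value of 0.625 for 6 samples. On the log2(CPM + 1) scale of the permutation tests this tumor was at 12.22, the nearest at 10.97 and the lowest at 9.79. That gap is below the critical part of the range, so the flag holds for CPM only. Of the 10 groups of 6 tumors examined (5 genes in 2 genotypes) this group was the 1 flagged, and chance flags about 1 in 20. Without this tumor the genotype difference of Spp1 was -0.08 on the log2 scale in place of 0.51.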

How the results depend on the processing

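The stage calls of Arg1, Spp1, Mmp12 and Chil1 kept their direction and threshold in both genotypes in every alternative count fit. In tumors the genotype comparison called 24 genes with DESeq2 and 15 without both Kit-W/sh tumor 2 and Kit-B6 tumor 4, in place of 0, with 1 of the 5 genes, Nos2, among each. Mmp12 then changed sign to -0.11 without both libraries. Leaving out 1 library gave -0.20 to 0.31 for Mmp12, -0.05 to 0.56 for Arg1 and -0.08 to 0.71 for Spp1, and -0.02 to 0.81 for the mean log2 level of Mmp12. The cause was not tested. Relative to the neutrophil sum, tumor differences were -0.85 for Arg1 (exact permutation p = 0.0281), 0.11 for Nos2, -0.75 for Spp1, -0.78 for Mmp12 and 0.07 for Chil1.

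In preneoplastic colon, 1 gene was called, against 20 with DESeq2, 0 without TMM scaling or with all 17 libraries in the fit, and 0 to 16 without 1 library. There, leaving out 1 library changed the sign of Arg2 (-0.11 to 0.59), Ass1 (-0.19 to 0.19) and Cd44 (-0.64 to 0.03). The interaction called 1 gene with DESeq2 and 0 to 2 without 1 library, with Chit1 at -1.09 to 0.44 and Itgb3 at -0.18 to 1.01. Stage calls without 1 library numbered 265 to 425 in Kit-B6 and 132 to 367 in Kit-W/sh, lowest without a preneoplastic sample. The stage difference of Kit in Kit-W/sh was 0.07 without TMM scaling. The Arg1 to Nos2 ratio between tumor genotypes was -1.17 to -0.71 without 1 library, past 0.05 without Kit-W/sh tumor 6 (-1.17) or Kit-B6 tumor 4 (-1.16). Its stage difference in Kit-W/sh was 5.45 to 5.90 without 1 library, and 5.61 and 5.70 with 1 preneoplastic sample, where the smallest exact permutation p is 0.143. Without the 2 farthest tumors, r was -0.25 (Kit-B6) and -0.97 (Kit-W/sh) for Nos2 and Spp1, -0.24 for Spp1 and Mmp12 in Kit-B6 and -0.22 for Nos2 and Chil1 in Kit-W/sh.

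The deviations of same-numbered samples from their group means correlated at -0.19 to 0.40. Differently numbered samples were not compared, so whether the numbers mark a shared batch or pairing was not tested. With the replicate number as a block, 0 genes were called in both genotype comparisons, 276 in the Kit-B6 and 250 in the Kit-W/sh stage comparison. The block left 4 of the 5 genes called in each stage comparison (Nos2 in Kit-W/sh at 1.86, adjusted p = 0.07361), ended the Kit-B6 calls of Arg2 (1.06, adjusted p = 0.05146) and Chit1 (adjusted p = 0.05469), and gave Ass1 -0.16 and Cd44 0.03 in preneoplastic colon. The stage fold changes of Spp1, Mmp12 and Chil1 rest on 0 to 8 counts per preneoplastic library.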
